A study of Mus musculus with 2 samples.

Results

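Odorant receptor pseudogenes are receptor genes whose names mark them as unable to make a working receptor. Here they were taken as every feature of the count tables whose symbol is Olfr and a number followed by -ps, which gave 34 of 32534 features. The other 1105 Olfr features, whose symbols carry no -ps, are called intact ORs after their names. Droplet-based 3′ single-cell RNA-seq had been run on dissociated olfactory epithelium of female mice, with 1 library for each of 2 genotypes. The first library came from a mouse of 9 weeks hemizygous for Tg(Or8a1-OR1A1,-MAPT/mCherry)D736Feins, a transgene whose symbol names Or8a1, the odorant receptor OR1A1 and a MAPT/mCherry marker. The second came from a wild-type (WT) mouse of 8 weeks of the cross of 10G4-V2.2-#7/Jax with Bl6/129SF1/J. No library had a replicate, so no test was made, intervals cover counting error only, and genotype, strain, age and library cannot be told apart.

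Odorant receptors are G protein-coupled receptors of olfactory sensory neurons (OSNs). An OSN normally transcribes a single receptor gene, and signalling that follows from the receptor protein is known to stabilise that choice. A neuron that first picks a gene without a working product can go on to pick another, so receptor pseudogenes have been used to study how a choice is held. Maturing OSNs pass from globose basal cells (GBCs) through immediate neuronal precursors (INPs) and immature OSNs, marked by Gap43 and Gng8, to mature OSNs, marked by Omp and Adcy3.

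All 34 pseudogene features were annotated as protein-coding in GENCODE release M21 (GRCm38), with an ATG start and no stop codon inside the coding sequence. Genes annotated as coding have such a frame from the annotation itself, as had all 1101 intact ORs with a coding sequence. Whether the pseudogene features can make a receptor was thus not tested. Their coding sequences of 891 to 1032 bases (median 942) were like those of the intact ORs (median 939). RefSeq for GRCm38 typed 32 of the 34 as pseudogenes and 2, Olfr1532-ps1 and Olfr911-ps1, as protein-coding. A further 258 GENCODE genes with -ps symbols carried pseudogene types and were not among the features counted, so the 34 are a minority of the receptor pseudogenes known by name. The 34 features were on chromosome 2 (11 features), 7 (7), 9, 17 and 19 (3 each), 10 and 13 (2 each), and 5, 14 and X (1 each). More than 1 coding exon was annotated for 10 of 34 pseudogene features (29.4%) and for 25 of 1101 intact ORs with a coding sequence (2.27%).

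The sequences below are shown because they carry the best-known landmark of the family, the conserved stretch at the inner end of the third membrane span, and because they include the pairs whose cells are compared further on. Each is 60 bases of coding sequence from GENCODE M21 transcripts (GRCm38, another build than the GRCm39 of the counts), and the capitals mark the 10 codons of the landmark. The chromosomes and strands are 5 minus (Olfr718-ps1), 17 plus (Olfr105-ps), 2 plus (Olfr1192-ps1, Olfr1191-ps1 and Olfr1193), 2 minus (Olfr1315-ps1 and Olfr1316), 10 minus (Olfr766-ps1) and 7 minus (Olfr680-ps1). Between 8 and 10 of the 10 residues matched the landmark in each.
Olfr718-ps1: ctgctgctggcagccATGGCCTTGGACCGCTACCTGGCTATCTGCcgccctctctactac
Olfr105-ps: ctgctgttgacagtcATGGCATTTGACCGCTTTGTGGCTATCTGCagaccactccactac
Olfr1192-ps1: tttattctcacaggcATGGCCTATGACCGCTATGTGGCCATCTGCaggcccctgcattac
Olfr1191-ps1: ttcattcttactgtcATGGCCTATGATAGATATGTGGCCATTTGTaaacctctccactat
Olfr1193: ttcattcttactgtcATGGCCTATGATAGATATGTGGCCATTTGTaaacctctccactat
Olfr1315-ps1: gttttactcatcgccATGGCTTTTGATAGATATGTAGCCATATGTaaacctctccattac
Olfr1316: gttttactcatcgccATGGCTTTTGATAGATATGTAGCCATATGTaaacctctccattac
Olfr766-ps1: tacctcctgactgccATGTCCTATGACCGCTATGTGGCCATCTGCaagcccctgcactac
Olfr680-ps1: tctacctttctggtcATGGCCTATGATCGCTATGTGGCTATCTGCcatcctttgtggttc

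Olfr1191-ps1 and Olfr1193 have the same letters over this stretch, as do Olfr1315-ps1 and Olfr1316. Over the whole coding sequence, Olfr1191-ps1 (933 bases) and Olfr1193 (954 bases) were identical at 912 positions, or 97.7% of the 933 bases that aligned. Olfr1315-ps1 and Olfr1316 were identical at 934 of 942 positions. Reads come from transcript ends, which are what keeps such genes apart in the counts. Of the 50-base windows in the last 500 bases of the Olfr1191-ps1 transcripts, 0 of 902 were found in Olfr1193. In contrast, 317 of 706 windows of Olfr1315-ps1 were found in Olfr1316, so counts of the second pair are uncertain. Ends of Olfr1193 were not looked up in Olfr1191-ps1 by name. Of the end windows of Olfr1193, 21.6% were found in some other Olfr feature, so counts of the first pair are not certain either. At least 1 such window was shared with another Olfr gene in 12 of 34 pseudogene features (35.3%) and in 633 of 1101 intact ORs (57.5%).

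After filtering, 1745 transgenic and 1117 WT cells were kept, with medians of 14440 and 12983 unique molecular identifiers (UMIs, the counted molecules), and 1 cell barcode occurred in both sets. Mature OSN-like cells numbered 651 in the transgenic and 440 in the WT library, immature OSN-like cells 328 and 78, INP-like cells 69 and 15, and GBC-like cells 53 and 8. These names rest on markers: Omp stood at 4989 and 5088 counts per 1000000 UMIs (CPM) in the transgenic and WT mature cells, and Gap43 at 1997 and 1831 CPM in the immature cells. Pseudogene features had 2915 UMIs over all transgenic barcodes and 2304 over all WT barcodes, of which 66.1% and 61.0% lay in kept cells. In barcodes of under 100 UMIs, which stand for free RNA, they had 62 UMIs (28.9 CPM) in the transgenic and 88 UMIs (38.1 CPM) in the WT library. Free RNA of these features was thus measurable in both libraries, and a feature was called in a cell only from 3 UMIs.

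Pseudogene features were found in OSN-like cells about as often as intact ORs. At 3 or more UMIs in at least 1 mature or immature OSN-like cell, 17 of 34 pseudogene features (50%) and 597 of 1105 intact ORs (54.0%) were detected, where the share over all Olfr features was 53.9%. In transgenic cells the shares were 38.2% of pseudogene features and 40.8% of intact ORs (all Olfr features, 40.7%), and in WT cells 26.5% and 28.3% (all Olfr features, 28.3%). The 95% exact binomial interval for the pseudogene share over both libraries, 32.4% to 67.6%, contains the intact share. Each of the 17 led at least 1 OSN-like cell, meaning that no other Olfr feature of that cell had as many UMIs. Pseudogene features led 103 OSN-like cells for every 100 features, against 106 for intact ORs, and a leading feature of either kind led a mean of 2.06 cells. Of the members with 2 coding exons 6 of 10 were detected, and of those with 1 coding exon 11 of 24.

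**Figure D1:**
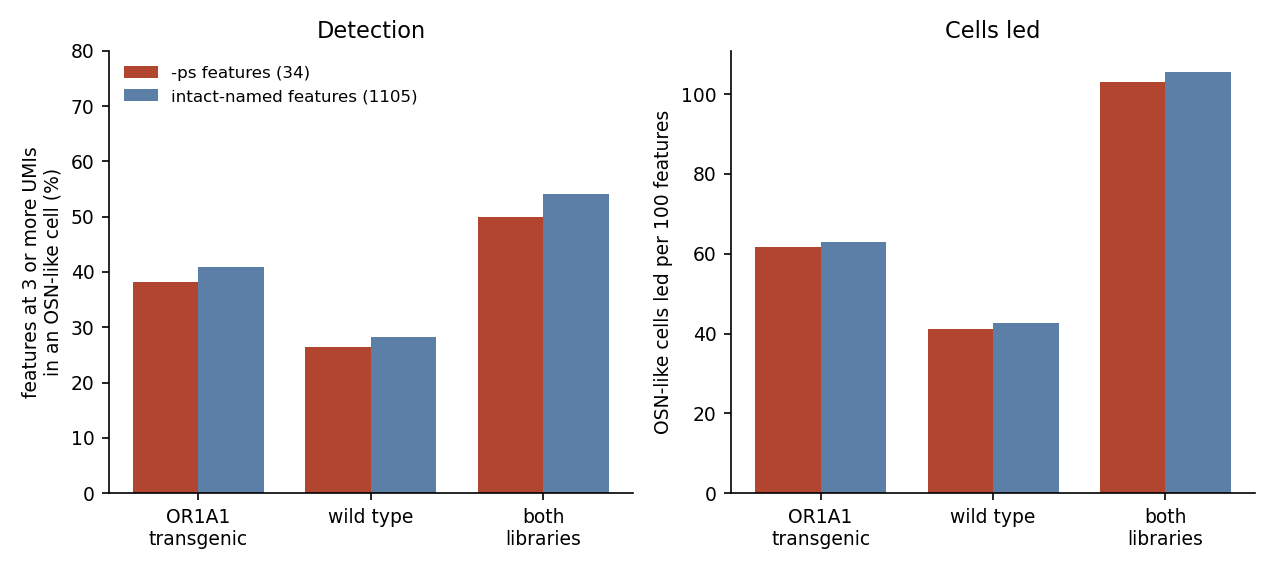
Left, the percent of -ps features (34) and of intact-named Olfr features (1105) at 3 or more UMIs in at least 1 OSN-like cell; right, the number of OSN-like cells led by a feature of each kind per 100 features, for the OR1A1 transgenic library, the WT library and both together. The -ps bars stand slightly below the intact bars in all 3 positions, with 50% against 54.0% of features in both libraries together.

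The 34 members fall into 4 groups by where their UMIs lay. The 17 detected members were at 3 or more UMIs in a kept OSN-like cell, 13 of them in the transgenic and 9 in the WT library. Another 5 reached 3 UMIs only in barcodes that were not kept as cells. A further 9, namely Olfr106-ps, Olfr1150-ps1, Olfr1185-ps1, Olfr1493-ps1, Olfr1532-ps1, Olfr548-ps1, Olfr709-ps1, Olfr764-ps1 and Olfr896-ps1, had UMIs but stayed under 3 in every barcode. The last 3, Olfr573-ps1, Olfr625-ps1 and Olfr911-ps1, had no UMI in any barcode of either library. Of the detected members, 8 were seen only in the transgenic, 4 only in the WT and 5 in both libraries.

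**Figure D2:**
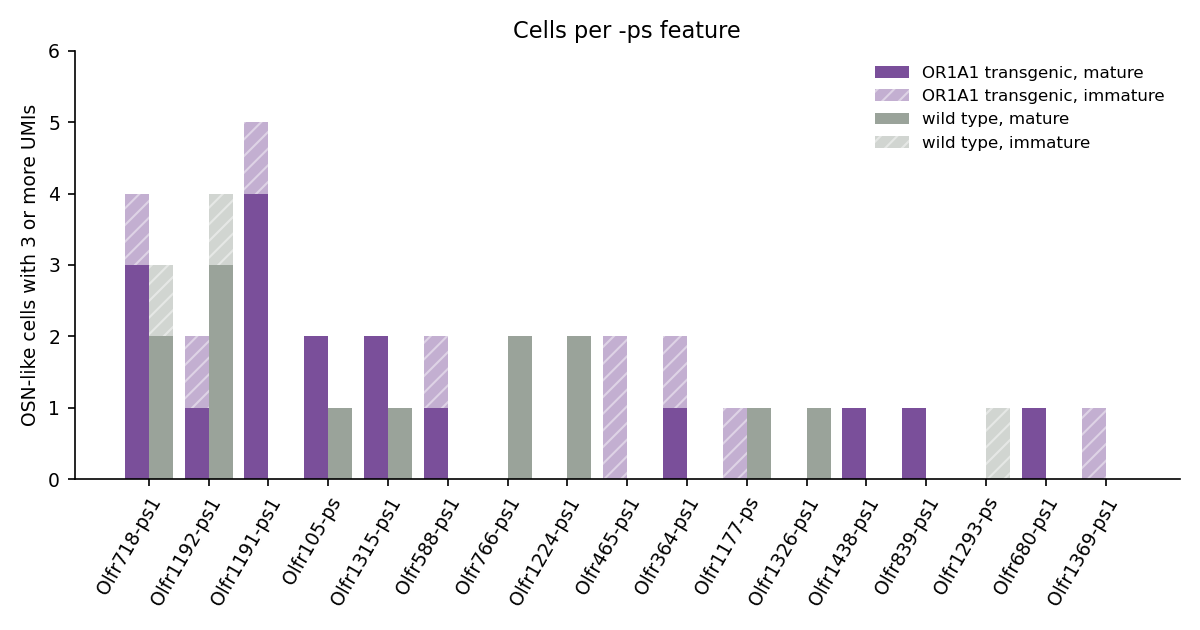
Number of OSN-like cells with 3 or more UMIs of each detected -ps feature, with transgenic bars left of WT bars and immature cells hatched on top of mature cells. Olfr718-ps1 (7 cells), Olfr1192-ps1 (6) and Olfr1191-ps1 (5) have most cells, and the bars of Olfr1191-ps1 are all transgenic.

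Olfr718-ps1, a 2-exon gene with no other counted Olfr feature as its neighbour in the GENCODE M21 order, had most cells. In transgenic OSN-like cells it had 248, 197, 188 and 3 UMIs, and in WT OSN-like cells 114, 4 and 4 UMIs. The 3 high transgenic cells and the high WT cell were mature and held no intact OR above 1 UMI, whereas each of the 3 cells with 3 or 4 UMIs held an intact OR at 4 UMIs or more. Its sum over mature cells was 635 UMIs (69.7 CPM) in the transgenic and 122 UMIs (21.9 CPM) in the WT library.

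Olfr1192-ps1 was mainly a WT feature. Its OSN-like cells held 7 and 3 UMIs in the transgenic library, against 128, 115, 111 and 4 UMIs in the WT library. The 3 WT cells above 100 UMIs were mature and had at most 1 UMI of any intact OR. The highest value of the feature, 155 UMIs, was in a WT cell of the ionocyte-type microvillar class, which is not a neuron, with 41246 UMIs in all. That cell had no intact OR above 1 UMI, its UMI total was above the class median of 16688, and whether it was a neuron and another cell in 1 droplet was not tested.

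Olfr1191-ps1, next to Olfr1192-ps1 on chromosome 2, was called only in transgenic cells. It had 35, 33, 24 and 23 UMIs in 4 mature cells and 18 UMIs in an immature cell of the transgenic library, against no WT cell at 3 or more UMIs. All 5 cells also held Olfr1193, the intact OR on the other side of Olfr1192-ps1, at 3 or more UMIs. The remaining members with cells in both libraries were Olfr105-ps, Olfr1315-ps1 and Olfr1177-ps. Olfr105-ps had 162 and 89 UMIs in transgenic mature cells and 92 UMIs in a WT mature cell. Olfr1315-ps1 had 76 and 53 UMIs in transgenic mature cells and 36 UMIs in a WT mature cell. In these 2 members the WT cell lay within or below the range of the transgenic cells. Olfr1177-ps had 3 UMIs in a transgenic immature cell and 85 UMIs in a WT mature cell.

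Some members were seen in 1 library only. In the transgenic library, Olfr588-ps1 had 193 UMIs in an immature and 42 UMIs in a mature cell. Olfr364-ps1 had 120 UMIs in a mature and 4 UMIs in an immature transgenic cell. Olfr465-ps1 had 98 and 69 UMIs, both in immature transgenic cells. In the WT library, Olfr1224-ps1 had 131 and 60 UMIs and Olfr766-ps1 had 118 and 110 UMIs, all in mature cells. Members with 1 OSN-like cell each were Olfr1438-ps1, Olfr839-ps1, Olfr680-ps1 and Olfr1369-ps1 in the transgenic library, with 68, 54, 9 and 5 UMIs, and Olfr1326-ps1 and Olfr1293-ps in the WT library, with 76 and 29 UMIs. With so few cells of each, presence in only 1 library is a count and was not tested as a difference.

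Most mature cells with a pseudogene feature held no intact OR. In the transgenic library 16 of 651 mature cells (2.46%, 95% exact interval 1.41% to 3.96%) had a pseudogene feature at 3 or more UMIs, and 4 of the 16 (25%, 7.27% to 52.4%) also had an intact OR at 3 or more UMIs. In the WT library 13 of 440 mature cells (2.95%, 1.58% to 5.00%) had a pseudogene feature, and 1 of the 13 (7.69%, 0.195% to 36.0%) also had an intact OR. After each cell was thinned to 7900 UMIs, with 158 transgenic and 167 WT cells too shallow to enter, the shares of mature cells with a pseudogene feature were 2.44% and 2.53%. For scale, a second intact OR at 3 or more UMIs was found in 45 of 468 transgenic (9.62%) and 13 of 408 WT (3.19%) mature cells that had an intact OR.

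The transgenic cells with both kinds were cells of a single member. All 4 held Olfr1191-ps1, at 35, 24, 33 and 23 UMIs, with Olfr1193 at 8, 5, 4 and 6 UMIs in the same cells. The pseudogene feature was thus the higher in each of the 4. Without Olfr1191-ps1 the transgenic share was 7.69%, from the cell among the 4 that also held Olfr1192-ps1, at 3 UMIs. The WT cell was of another kind, with 4 UMIs of Olfr718-ps1 beside 546 UMIs of Olfr699.

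Over all barcodes of the transgenic library, kept or not, 12 had Olfr1191-ps1 at 3 or more UMIs, 10 of these had an Olfr1193 UMI and 8 had at least 3. Of the 9 transgenic barcodes with Olfr1193 at 3 or more UMIs, 8 also had Olfr1191-ps1 at that level. The share of the pseudogene feature in the UMIs of both genes was 79.3% to 89.2% in the 4 mature cells and 15.3% in the immature cell, with 18 UMIs against 100 of Olfr1193. In the WT library no barcode had Olfr1191-ps1 at 3 UMIs, and 2 barcodes had Olfr1193 at 3 or more UMIs, 35 and 5, with 0 and 1 UMI of Olfr1191-ps1. Whether reads of either gene were assigned to the other was not tested beyond the windows given above.

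In 4 other pairs of genes with similar sequence, no barcode had both genes at 3 or more UMIs. The 3 mature cells with Olfr1315-ps1 had 1, 0 and 2 UMIs of Olfr1316, and the 4 transgenic cells with Olfr1316 at 3 or more UMIs, up to 104, had at most 1 UMI of Olfr1315-ps1. The WT cells with Olfr1224-ps1 had at most 1 UMI of Olfr1223, its neighbour with 92.6% identity. No barcode of either library with Olfr364-ps1 at 3 or more UMIs had a UMI of Olfr365, and none with Olfr1369-ps1 at that level had a UMI of Olfr263, although 176 of 902 end windows of Olfr1369-ps1 were found in Olfr263.

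**Figure D3:**
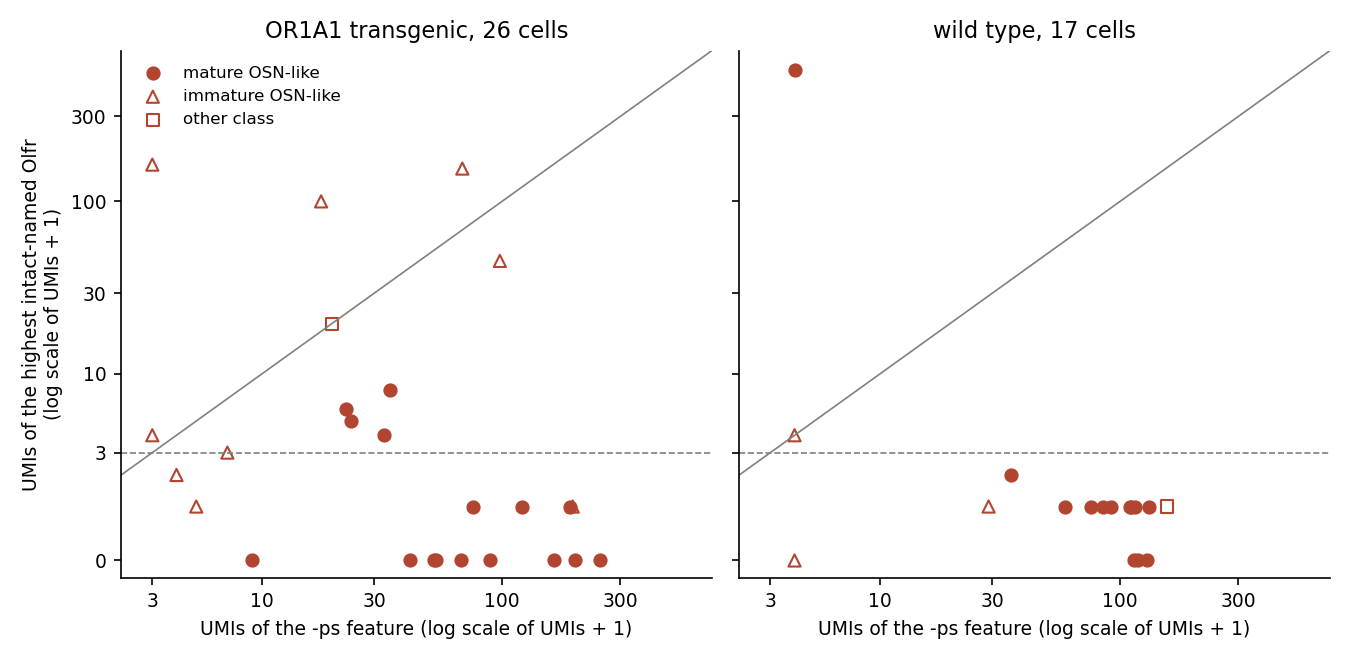
UMIs of the highest -ps feature (x) and of the highest intact-named Olfr (y) in each kept cell with a -ps feature at 3 or more UMIs, on log scales of UMIs + 1, with transgenic cells left and WT cells right; the dashed line is 3 UMIs and the sloping line marks equal UMIs. Most mature cells lie under the dashed line, and the 4 transgenic mature cells above it are the cells of Olfr1191-ps1.

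In mature cells with only 1 Olfr feature at 3 or more UMIs, pseudogene features reached UMI numbers like those of intact ORs. In the transgenic library the 12 cells with a pseudogene feature alone had 9 to 248 UMIs of it (median 82.5), against a median of 95 UMIs in the 419 cells with an intact OR alone (10th to 90th percentile 29.8 to 215.8). In the WT library the 12 cells with a pseudogene feature alone had 36 to 131 UMIs (median 110.5), against a median of 117 in 394 intact cells (41.3 to 242). The ratio of medians was 0.868 in the transgenic and 0.944 in the WT library, and 10 and 11 of the 12 cells lay between the 10th and 90th percentile of the intact cells. In immature cells, of which few had a pseudogene feature alone, the medians were 5 UMIs in 3 transgenic cells with a pseudogene feature alone against 81 in 197 with an intact OR alone, and 16.5 in 2 WT cells against 93 in 55. Over every OSN-like call at 3 or more UMIs, with or without another OR in the cell, the medians were 47.5 and 78 UMIs in transgenic and 88.5 and 106.5 in WT cells for pseudogene features and intact ORs. Depth was close in the compared mature cells, with medians of 14250 and 14370 UMIs in the transgenic and 13132 and 12335 in the WT library.

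In these cells, chosen because no other Olfr feature reached 3 UMIs, a high share of the Olfr UMIs is fixed by the choice. It is given as a description: the pseudogene feature's share had a median of 100% in transgenic and 98.9% in WT cells, against 99.3% and 99.4% for the intact OR in intact cells. In the mature cells left out by that choice, the share was 76.7% to 82.8% in the 4 transgenic cells of Olfr1191-ps1 and 0.723% in the WT cell of Olfr718-ps1 with Olfr699. At least 1 UMI of an intact OR was present in 3 of 12 transgenic and 9 of 12 WT cells with a pseudogene feature alone, against another intact OR in 61.1% and 59.9% of cells with an intact OR alone. The lowest cell, with 9 UMIs of Olfr680-ps1 and no intact UMI, was a mature transgenic cell of 12392 UMIs. Under 10 UMIs were also found in 11 of the 419 transgenic intact cells (2.63%).

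**Figure D4:**
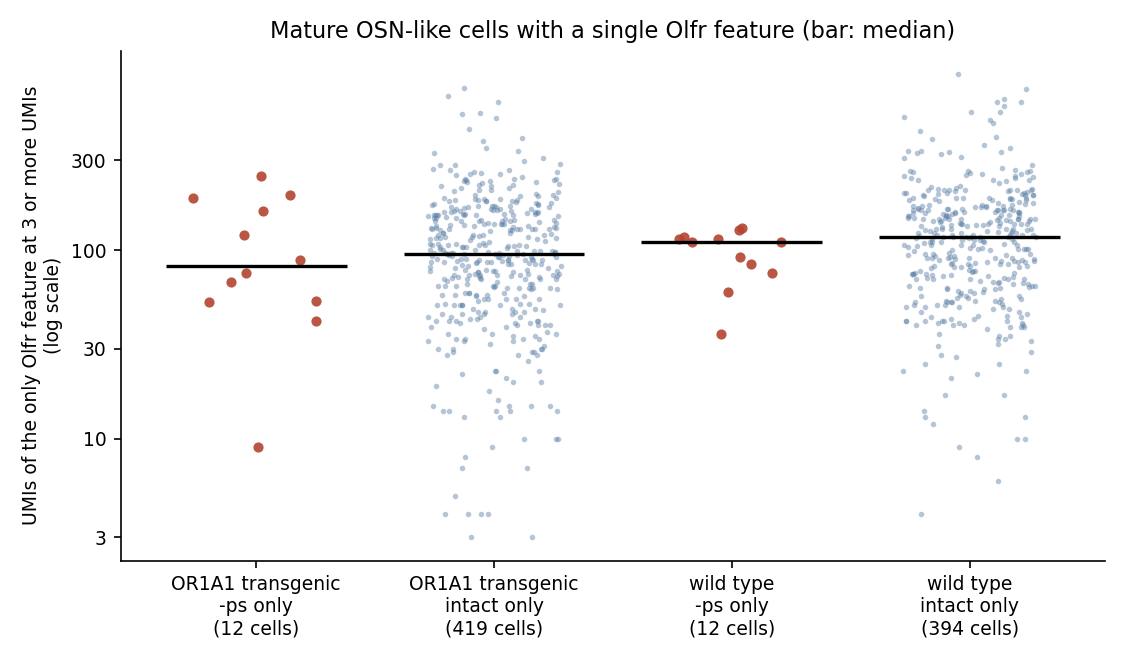
UMIs of the only Olfr feature at 3 or more UMIs in mature OSN-like cells (log scale), each point a cell and each bar a median, with -ps cells left of intact cells in the transgenic and then the WT library. The -ps medians are 82.5 and 110.5 UMIs, against 95 and 117 for intact ORs.

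Along the lineage, pseudogene features at 3 or more UMIs were found in immature and mature OSN-like cells, the stages where most intact ORs were found. None of 53 transgenic GBC-like and 69 transgenic INP-like cells had one, where a count of 0 taken as 3 cells allows shares of up to 5.66% and 4.35% (upper ends of the exact intervals, 6.72% and 5.21%). None of 8 WT GBC-like and 15 WT INP-like cells had one. Intact ORs were also absent at that level from all GBC-like cells and were found in only 2 of 69 transgenic and 1 of 15 WT INP-like cells. In immature cells an intact OR was found in 234 of 328 transgenic (71.3%) and 63 of 78 WT cells (80.8%). A pseudogene feature was found in 9 of 328 transgenic immature (2.74%, 1.26% to 5.14%) and 3 of 78 WT immature cells (3.85%, 0.80% to 10.8%). All other classes together had a pseudogene feature at that level in 1 of 644 transgenic (0.155%) and 1 of 576 WT cells (0.174%), and at median depths of 13602 and 12563 UMIs. At 1 or more UMIs the shares in these classes, which are not OSNs, were 4.50% and 2.26%, against 4.92% and 5% in mature cells of 13870 and 12409 median UMIs, and no expression is read from 1 UMI. Receptor RNA was also present in these classes at higher counts: an intact OR was at 3 or more UMIs in 48 transgenic (7.45%) and 33 WT cells (5.73%), among them 10 of 18 transgenic erythroid-like and 27 of 85 transgenic sustentacular-like cells. In such cells with a single intact OR its median was 72.5 UMIs in the transgenic and 77.5 in the WT library, and how this RNA came to be there was not tested. Of cells with any Olfr feature at 3 or more UMIs, a pseudogene feature led 2.11% of transgenic immature and 3.33% of transgenic mature cells, and 3.08% of WT immature and 2.86% of WT mature cells, with overlapping intervals.

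**Figure D5:**
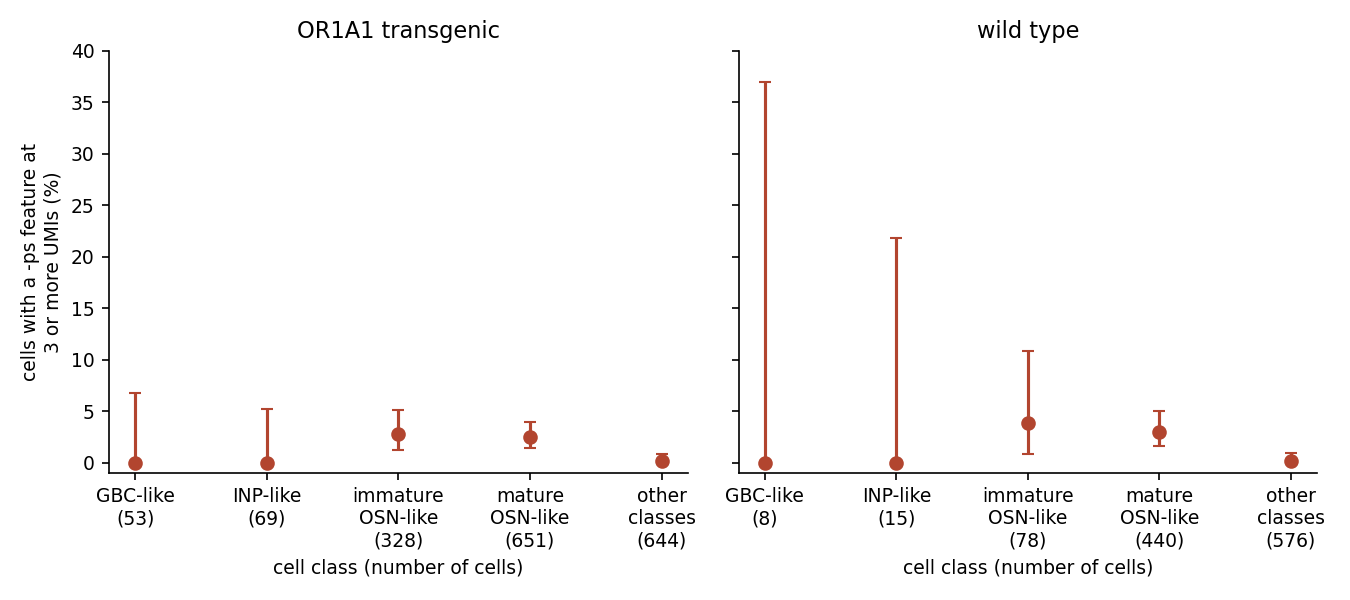
Percent of cells with a -ps feature at 3 or more UMIs by cell class, from progenitors to mature OSN-like cells and all other classes, transgenic left and WT right; points are shares, bars are 95% exact binomial intervals and numbers of cells stand under each class. Shares in immature cells are 2.74% and 3.85% and in mature cells 2.46% and 2.95%, while progenitors have none.

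Several immature cells held an intact OR beside the pseudogene feature. In 6 of 9 transgenic immature cells (66.7%, 29.9% to 92.5%) and 1 of 3 WT immature cells (33.3%, 0.840% to 90.6%) an intact OR was also at 3 or more UMIs, and these intervals overlap those of mature cells, 4 of 16 in the transgenic (25.0%, 7.27% to 52.4%) and 1 of 13 in the WT library (7.69%, 0.195% to 36.0%). Olfr465-ps1 was with Olfr281 in 1 of these cells, at 98 and 46 UMIs, and with Olfr411 in another, at 69 and 153 UMIs. Neither intact gene lies on the chromosome of Olfr465-ps1, and their coding sequences matched it at 55.0% and 55.1% of positions. Olfr1177-ps had 3 UMIs beside 161 UMIs of Olfr1176, its neighbour on the opposite strand. The cell with 193 UMIs of Olfr588-ps1 held only 1 UMI of an intact OR. Of intact ORs in immature cells, a second was present in 32 of 234 transgenic (13.7%) and 8 of 63 WT cells (12.7%).

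The earliest immature cells, in a cluster led by Tex15, had UMIs of more receptors per cell than the other classes. Their means were 10.1 intact ORs and 0.322 pseudogene features per cell in 59 transgenic cells, and 19.1 and 0.875 in 8 WT cells, counted from 1 UMI. The same means in the classes outside the OSN lineage, the background here, were 1.42 intact ORs and 0.0466 pseudogene features in transgenic and 1.08 and 0.0226 in WT cells. Olfr718-ps1 was present in 7 of the 59 transgenic (11.9%, 4.91% to 22.9%) and 3 of the 8 WT cells (37.5%, 8.52% to 75.5%). Only 1 intact OR was present in more of these cells in each library. In the later immature cells, Olfr718-ps1 had a UMI in 1 of 147 transgenic cells and 0 of 34 WT cells of the Calb2-led cluster, and in 0 of 122 and 0 of 36 of the Gap43-led cluster. Outside the OSN lineage it had a UMI in 10 of 644 transgenic (1.55%) and 1 of 576 WT cells (0.174%). There, 4 intact ORs were present in more cells in the transgenic and 124 in the WT library. The high rank in the transgenic library is thus not particular to the Tex15-led cells.

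Summed over mature cells, pseudogene features had 1444 UMIs (159 CPM) in the transgenic and 1190 UMIs (214 CPM) in the WT library, a log2 ratio of -0.43 (-0.54 to -0.32, counting error only). Intact ORs had 5950 and 10126 CPM, a log2 ratio of -0.77, so pseudogene features made up 2.60% of Olfr UMIs in transgenic and 2.07% in WT mature cells. Relative to all Olfr UMIs the ratio turned to 0.33, without Olfr1192-ps1 it was 0.076 and without Olfr718-ps1 it was -1.11, so the sign of the ratio depends on the scale and on single members. The sum rests on a few cells: Olfr718-ps1 gave 635 of the transgenic UMIs and Olfr1192-ps1 gave 355 of the WT UMIs. In bulk terms, fewer cells of a kind and less RNA per cell give the same sum. Of 5 members with at least 20 CPM and 50 UMIs in either library, 4 differed by 2-fold or more, where 5.09% of 7040 genes measured did, and of 225 intact ORs measured 84.9% did. Olfr1192-ps1, Olfr1224-ps1 and Olfr766-ps1 reached that minimum in WT cells only, at 63.7, 34.3 and 40.9 CPM. Their transgenic values were 0.549, 0 and 0.110 CPM. For features carried by few cells this entry rule favours a difference, so the count of 4 is not read as a library effect.

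Genes of OSN function were within 2-fold in mature cells with either kind of receptor gene alone. Cells of both kinds came from clusters named mature by markers that included Omp, Gnal, Adcy3, Cnga2, Cnga4, Ano2, Gng13, Stoml3 and Rtp1. Likeness in these genes is thus partly fixed by the choice of cells, while Cngb1, Rtp2, Ric8b and Gfy were not among those markers. Over the 12 transgenic cells with a pseudogene feature alone and the 419 with an intact OR alone, Omp stood at 4701 and 5035 CPM (log2 ratio -0.10, -0.20 to 0.00), and in the WT library at 4814 and 5109 CPM in 12 and 394 cells (-0.08, -0.20 to 0.03). Adcy3, the adenylyl cyclase of odorant signalling, stood at 852 and 926 CPM in transgenic and 1160 and 1130 CPM in WT cells. None of 13 OSN signalling genes passed 2-fold in either library. Their median log2 ratio was -0.04 in transgenic and -0.08 in WT cells, against 0.08 and 0.14 over all genes measured. The 1 UMI added to each sum raises ratios most for genes with few UMIs in the 12 cells. Medians of genes with unlike counts are therefore not strictly comparable. Counting intervals lay wholly below 0 for 3 of the 13 in the transgenic and 2 in the WT library, and wholly above 0 for none. Cngb1, a subunit of the odorant-gated channel, stood at 173 and 297 CPM in transgenic cells (log2 ratio -0.73, -1.35 to -0.26) and 254 and 314 CPM in WT cells (-0.27, -0.83 to 0.18). Stoml3 had log2 ratios of -0.43 in transgenic and -0.09 in WT cells, and Gng13, the G protein gamma subunit of OSNs, of -0.20 and -0.42. These intervals take no account of differences between cells. Per cell, Omp ranged from 2073 to 6986 CPM in transgenic and from 2941 to 6519 CPM in WT cells with a pseudogene feature alone, around intact medians of 5067 and 5071 CPM.

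Genes of the receptor feedback and of RNA quality control were mostly within 2-fold. Atf5, a transcription factor translated when receptor protein engages the unfolded protein response, stood at 2118 and 2227 CPM in transgenic and 2052 and 2027 CPM in WT cells. Ddit3, another gene of that response, stood at 299 and 171 CPM in transgenic cells (log2 ratio 0.83, 0.38 to 1.21) and 145 and 127 CPM in WT cells (0.25, -0.54 to 0.83), under 2-fold in both. Of 61 listed genes, 45 were measured in both libraries. Listed genes past 2-fold numbered 3 in the transgenic library, where 5.49% of 6392 genes were past it. In the WT library they numbered 2, where 7.45% of 6561 genes were. Gap43, Ebf4 and Upf1 were the 3, all lower in cells with a pseudogene feature alone, on 1, 7 and 2 UMIs there. The 2 of the WT library were Gap43, lower, and Ehmt2, higher, on 6 UMIs in those cells. All of these genes reached the minimum of 50 UMIs in the intact cells only. Genes with few UMIs in the 12 cells could enter only through the intact cells, so the filter favoured lower values. Ebf1, a listed gene of receptor choice, had log2 ratios of 0.35 (0.15 to 0.53) in transgenic and 0.40 (0.20 to 0.58) in WT cells. Ebf4, of the same list, had -1.07 and -0.45. Of the 8 nonsense-mediated decay genes measured in each library, Upf1 was past 2-fold in the transgenic library and none in the WT library. Upf1 stood at 11.5 and 37.4 CPM (2 and 223 UMIs) in transgenic cells. The 8 genes had a median log2 ratio of 0.41 in transgenic and 0.21 in WT cells, against 0.08 and 0.14 over all genes. No counting interval of these genes lay wholly above or below 0 in either library. The 1 UMI added to each sum raises ratios of genes with few UMIs in the 12 cells. Smg1 in WT cells, for example, had 65.2 and 61.8 CPM and a log2 ratio of 0.23. Listed heterochromatin genes had medians of 0.44 and 0.10. Counting intervals lay wholly above 0 for 2 of 6 measured in transgenic cells and wholly below 0 for 1 of 7 in WT cells. Cbx3 went opposite ways, with 0.48 (0.05 to 0.84) in transgenic and -0.54 (-1.24 to -0.01) in WT cells.

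Gap43 was the only listed gene past 2-fold the same way in both libraries, and it rests on very few UMIs. The other immaturity genes did not follow it as a set. Median log2 ratios of the 5 immaturity genes measured, Gap43 among them, were 0.07 in transgenic and -0.06 in WT cells. Gap43 was also among the markers that named immature clusters, so low values in mature cells are partly fixed by their choice. Cells with a pseudogene feature alone had 1 UMI of it in transgenic cells (5.75 CPM, against 56.2 CPM in intact cells) and 0 UMIs in WT cells (against 22.0 CPM). A count of 0 in those WT cells allows up to 21.7 CPM, so a difference was not detectable there at this depth. Sustentacular markers, a sign of RNA from supporting cells, were summed in each cell with a pseudogene feature or an intact OR alone. Medians were 59.7 and 84.0 CPM in transgenic and 0 and 52.5 CPM in WT cells. Ranges were 0 to 353 against 0 to 4103 CPM in transgenic, and 0 to 150 against 0 to 1440 CPM in WT cells. The intact ranges cover more cells, 419 and 394 against 12 in each library. In cells with a pseudogene feature alone, 2 of 8 markers were at 0 in the transgenic and 5 of 8 in the WT library. The part of sustentacular RNA in the values above was not tested.

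The OR1A1 transgene was mostly at low counts in cells led by a pseudogene feature. In the transgenic library, 8 of 16 such mature cells (50%, 24.7% to 75.3%) had a transgene UMI and 2 of 16 (12.5%) had at least 3. Of the 12 with a pseudogene feature alone, 6 (50%) had a transgene UMI and 2 (16.7%) had at least 3. Of the 419 cells with an intact OR alone 32.9% had a transgene UMI and 10.5% had at least 3, while of 171 mature cells with no Olfr feature at 3 or more UMIs 91.2% and 83.0% did. The highest transgene count beside a pseudogene feature was 13 UMIs, in the mature cell with 42 UMIs of Olfr588-ps1. The next was 3 UMIs, in the cell with 162 UMIs of Olfr105-ps.

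Olfr1369-ps1 lay mostly outside neurons that were kept. Its only OSN-like cell was a transgenic immature cell with 5 UMIs, while a transgenic sustentacular-like cell held 20 UMIs of it with 20 UMIs of Olfr536. A transgenic barcode of 65354 UMIs that was not kept, with 10.5% mitochondrial UMIs, held 241 UMIs of it with 185 UMIs of Olfr536. These were the only 2 of 7 transgenic barcodes with Olfr536 at 3 or more UMIs that held Olfr1369-ps1. None of 13 WT barcodes with Olfr536 at 3 or more UMIs held it. The coding sequences of Olfr1369-ps1 and Olfr536 match at 54.6% of positions, and whether the 2 barcodes hold RNA of the same cells was not tested.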

How the data were processed

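Raw UMI counts per gene and barcode were used as the authors deposited them, with all barcodes; the submitters' processing notes name Cell Ranger 6.1.1 and GRCm39, and the file headers name Cell Ranger 4. Each library held 2037787 (transgenic) and 1577106 (wild-type) barcodes. Barcodes were kept with at least 5827 (transgenic) and 5318 (wild-type) UMIs, 500 genes and at most 10% mitochondrial UMIs. Scrublet removed 4 and 2 cells, too few for a caller that has worked, so doublets remain possible. Cells of both libraries were clustered together with scanpy 1.11.5 (2000 variable genes, 30 components, resolution 1) and named from marker lists. Clusters led by Bpifa1, Dcpp or Mpo genes were left unnamed by a list made after the clusters were seen. An Olfr feature was called at 3 UMIs. Shares have exact Clopper-Pearson intervals at 95%, and log2 ratios use 1 added UMI and a conditional binomial interval. Genes were measured at 20 CPM and 50 UMIs on either side, and 2-fold served as the call. Of 34 members, the 10 with most OSN-like cells are given in full. Sequences came from GENCODE M21 transcripts and gene types from RefSeq, both of GRCm38, matched by gene ID or symbol for all 34; closest genes were found with BLAST 2.17.0. Alternatives changed cell filters, doublets, resolution, UMI minimum and depth. Members and lists were chosen with earlier results of these data known.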

Additional observations from a re-analysis of the deposited data

Results flagged for a closer look

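Members at 3 or more UMIs only in barcodes that were not kept as cells numbered 5. Olfr1025-ps1 reached that level in 6 such barcodes, with 21, 3 and 3 UMIs in the transgenic and 4, 3 and 3 UMIs in the WT library. Its highest barcode had 3648 UMIs in all and 22 Omp UMIs. Olfr1555-ps1 did so in 2 barcodes, with 4 UMIs in a transgenic and 13 UMIs in a WT barcode of 640 UMIs. Olfr104-ps, Olfr1291-ps1 and Olfr721-ps1 did so in 1 WT barcode each, with 4, 3 and 3 UMIs. No intact OR passed 1 UMI in any of these 11 barcodes. Over all members, 21 transgenic and 15 WT barcodes outside the kept cells held a pseudogene feature at 3 or more UMIs. Of these, 20 and 15 were under the UMI minimum, 15 and 15 were over the mitochondrial limit, and 13 and 9 had an Omp UMI.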

How the results depend on the processing

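Of 152 alternative values, 129 stayed within the interval of the main value or within 1.5 times the main count, 21 moved and 2 turned the direction. The log2 library ratio (-0.43) turned to 0.33 with all Olfr UMIs as denominator and to 0.076 without Olfr1192-ps1, and was -1.11 without Olfr718-ps1. Leaving out a member was chosen after seeing the data. A minimum of 1 UMI gave pseudogene features in 4.92% of transgenic and 5% of WT mature cells, an intact OR beside them in 71.9% and 86.4%, and detection of 70.6% of pseudogene features and 76.8% of intact ORs. Detection of intact ORs was 57.9% from 2 UMIs, 50.4% from 10 UMIs, 50.4% after thinning and 50.1% at resolution 0.5. The share with an intact OR was 0 in WT cells from 5 UMIs and after thinning, and 0 in both libraries from 10 UMIs. The WT ratio of medians was 1.01 with a minimum of 500 UMIs per cell. Without the filter on low values, 7 transgenic and 11 WT listed genes and 45.7% and 46.1% of all genes passed 2-fold. The transgene share from 3 UMIs was 12.5%. The causes of these moves were not tested. No paired analysis was possible because each genotype had 1 library. The number of cells, not depth, limits the shares in the 8 WT GBC-like and 15 WT INP-like cells, where a count of 0 allows 37.5% and 20%.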
